A study of Mus musculus with 18 samples.

Results

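The interferon-stimulated and antigen presentation genes of primary mouse cortical astrocytes were examined as a set of 41 named genes, all of which were found by symbol among the 51912 genes of the count table and were among the 24495 genes tested. The set is a list of gene names with no threshold on a measured value, and it was drawn up with earlier results of these data known. The cultures were made from the cortices of equal numbers of male and female transgenic PD 0 mice (Aldh1l1-EGFP/Rpl10a), so each dish pools several animals. The line was JD130Htz on a B6;FVB background, and its hemizygous mice were crossed to C57BL/6J to give hemizygous pups. In these mice the Aldh1l1 promoter drives an EGFP-tagged ribosomal protein RPL10A. After 14 d the cells were replated, grown for 6 d, kept without serum for 24 h and then held for 24 h in serum-free medium with 50 mM ethanol or in control medium (0 mM). In the TRAP procedure the tagged ribosomes are pulled down with GFP antibodies, and the RNA bound to them is the IP fraction, while the input fraction is a sample of the whole cleared lysate. Libraries were sequenced from the IP of 6 control and 6 ethanol dishes and from the input of 3 dishes of each treatment, replicates 4 to 6, so an input and an IP library of the same treatment and number came from the same dish.

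Cells make interferons when sensors such as RIG-I (*Ddx58*) and MDA5 (*Ifih1*) meet foreign RNA. LGP2 (*Dhx58*) is a related RNA sensor, and ZBP1 (*Zbp1*) senses Z-form nucleic acid. Interferons bind receptors on the same or on neighbouring cells, kinases of the JAK family activate transcription factors, and a complex that includes STAT2 and IRF9 switches on interferon-stimulated genes that block virus entry, RNA translation and replication. Interferon also raises the supply of peptides to MHC class I, which shows them to CD8 T cells, and astrocytes are known to carry out both programmes. USP18 removes the ubiquitin-like protein ISG15 from its targets and damps interferon receptor signalling.

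The libraries held 74239854 to 132810705 read pairs on genes (median 84119135), and the lowest count of any of the 41 genes in a library was 258, so the spread between dishes and not counting error sets the precision here. Values are given as CPM, read pairs scaled to a common library size with TMM. *Aldh1l1*, whose promoter drives the tag, stood at 186 to 193 CPM in the input control and at 367 to 395 CPM in the IP control libraries, a log2 difference of 1.05 (SE 0.022) over all 18 libraries. Of 18 microglia markers, 17 were lower in IP than in input, with a median log2 difference of -2.46, and none was higher. Their summed level was 308 to 319 CPM in input control and 105 to 112 CPM in IP control libraries. Nothing in the labels says that dishes came from separate litters, so p-values rest on the spread between dishes. The fit draws on all genes to estimate that spread. With 3 input libraries a group, the SE of a gene can thus be smaller than its own values would give. In such bulk samples fewer cells of a type and less RNA per cell cannot be told apart.

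All 41 genes were on in control cultures, over a wide range. Per kb of exon in the 6 IP control libraries, *B2m*, the light chain of MHC class I, was highest at 2313 ± 70.9 CPM per kb (SD). The heavy chains *H2-D1* (734 ± 32.5 CPM per kb) and *H2-K1* (692 ± 30.8 CPM per kb) followed and did not differ from each other beyond their SDs. *Ifit3*, which binds viral RNA together with IFIT1, at 424 ± 28.9 CPM per kb and *Bst2*, the tether that holds budding virus at the cell surface, at 401 ± 27.3 CPM per kb came next and also overlapped. *Isg15* stood at 154.8 ± 16.7 CPM per kb. The lowest were *Mx2* at 3.51 ± 0.227 CPM per kb and *Mx1*, the gene of a dynamin-like antiviral GTPase, at 1.42 ± 0.136 CPM per kb. Among the 16981 protein-coding genes tested, *B2m* lay at percentile 99.98, *Mx1* at percentile 38.9, and the median of the 41 genes, held by *Trim30a*, at percentile 85.9. Of 21 interferon genes themselves, 3 passed the count filter and none reached a mean of 1 CPM. Their summed level was 0.240 to 0.279 CPM in input control and 0.0348 to 0.369 CPM in IP control libraries.

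**Figure D1:**
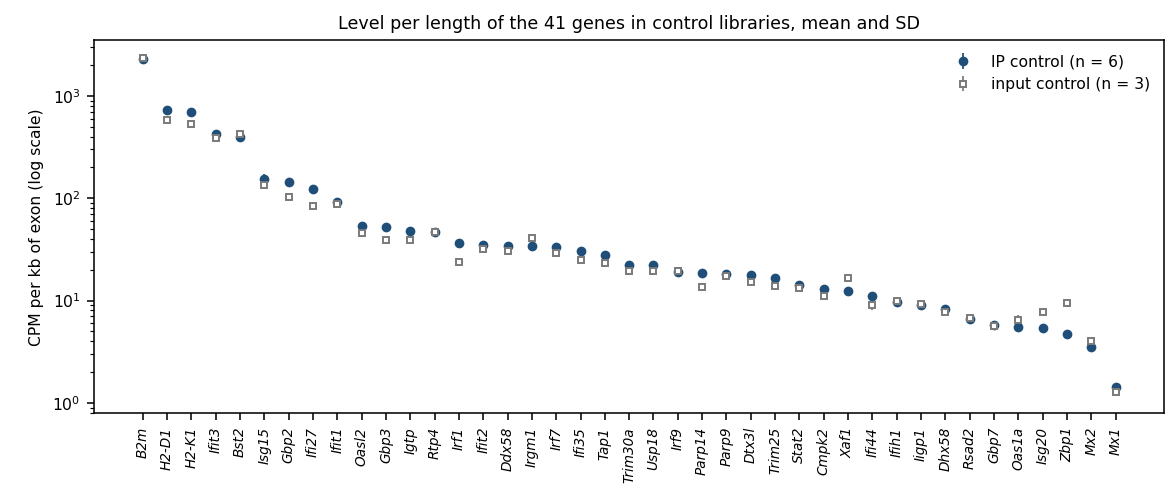
Mean CPM per kb of exon (log scale, SD as bars) of the 41 genes in 6 IP control and 3 input control libraries, ordered by the IP control level. The levels run from 2313 CPM per kb for *B2m* to 1.42 CPM per kb for *Mx1*, and *Zbp1* is the gene with the clearest gap between input and IP.

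The promoters of these genes were searched for sequences through which interferon is known to act. Those of 5 genes whose levels changed and that held a match are shown. RefSeq windows (GRCm38.p6) of 300 bases, 250 before and 50 after the transcription start, were matched by symbol for 31 of the 41 genes. The windows were searched on both strands for GAAANNGAA, the core of the interferon-stimulated response element (ISRE) bound by the complex with IRF9 and by other IRFs, and for TTCNNNGAA, the gamma-activated site through which interferon gamma is known to act. At least 1 window held the ISRE core in 18 of the 31 genes (58.1%), against 9.76% of 27025 genes with a window. The gamma-activated site was found in 8 of the 31 (25.8%), against 9.55% of all genes, and 4 (*Oas1a*, *Bst2*, *Gbp7* and *Igtp*) held both. The motifs end in the same 3 letters and can overlap. Capitals mark the matches in the windows below, written 5′ to 3′ on the strand of the gene.
Isg15 (chr4:156200769-156201068, minus strand): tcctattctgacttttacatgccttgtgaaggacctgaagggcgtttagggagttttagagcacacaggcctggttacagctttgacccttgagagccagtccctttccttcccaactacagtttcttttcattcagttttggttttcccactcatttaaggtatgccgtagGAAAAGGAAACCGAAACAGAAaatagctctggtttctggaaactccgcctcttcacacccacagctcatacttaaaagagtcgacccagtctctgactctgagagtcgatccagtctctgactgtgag
Stat2 (chr10:128270248-128270547, plus strand): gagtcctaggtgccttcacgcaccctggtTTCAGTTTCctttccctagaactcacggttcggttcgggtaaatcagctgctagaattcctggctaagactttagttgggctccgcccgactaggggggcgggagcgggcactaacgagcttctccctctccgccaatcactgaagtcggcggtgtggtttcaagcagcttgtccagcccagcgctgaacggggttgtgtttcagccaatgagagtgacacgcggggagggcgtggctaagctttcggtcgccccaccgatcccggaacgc
Oas1a (chr5:120907476-120907775, minus strand): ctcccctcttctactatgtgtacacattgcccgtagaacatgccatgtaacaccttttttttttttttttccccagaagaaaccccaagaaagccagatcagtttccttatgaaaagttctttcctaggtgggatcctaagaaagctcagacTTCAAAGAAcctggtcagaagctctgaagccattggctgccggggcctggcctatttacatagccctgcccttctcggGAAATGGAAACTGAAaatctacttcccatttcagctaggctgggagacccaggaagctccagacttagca
B2m (chr2:122147437-122147736, plus strand): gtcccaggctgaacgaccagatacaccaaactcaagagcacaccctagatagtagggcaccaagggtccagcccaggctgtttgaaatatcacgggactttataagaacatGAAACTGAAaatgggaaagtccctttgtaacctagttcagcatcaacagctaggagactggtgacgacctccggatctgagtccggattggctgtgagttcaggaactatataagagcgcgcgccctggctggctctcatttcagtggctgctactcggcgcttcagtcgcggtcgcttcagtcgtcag
Ifi35 (chr11:101448162-101448461, plus strand): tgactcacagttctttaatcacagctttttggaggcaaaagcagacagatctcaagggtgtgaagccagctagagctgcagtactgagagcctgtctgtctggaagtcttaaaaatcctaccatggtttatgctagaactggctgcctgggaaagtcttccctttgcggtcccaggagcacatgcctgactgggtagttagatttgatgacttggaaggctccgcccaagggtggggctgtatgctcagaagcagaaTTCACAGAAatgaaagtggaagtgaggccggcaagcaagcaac
In *Isg15* there are 3 overlapping copies of the ISRE core, which begin 78, 72 and 66 bases before the start. *B2m* has 1 copy, 139 bases before the start, and *Stat2* has 1 on the other strand, 221 bases before it. *Oas1a* holds a gamma-activated site 98 bases before its start and 2 overlapping ISRE cores at 20 and 14 bases. The match in *Ifi35* is a gamma-activated site that lies just past the start. No match was found in the windows of *H2-K1*, *H2-D1*, *Tap1* or *Cmpk2*, which says only that these letters are not in these windows.

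How ethanol treatment changed these genes in ribosome-bound RNA was asked of the 12 IP libraries. Genes of MHC class I presentation were higher in ethanol, and *Isg15*, *Usp18* and several antiviral effectors were lower. With edgeR's quasi-likelihood test and an adjusted p of 0.05 over all genes, 11 of the 41 genes changed in IP, 5 of them higher and 6 lower. This is 26.8% of the genes, beside 21.4% of all genes tested and 39.9% of the 11221 genes with a mean at or above that of the lowest of the 41 (4.54 CPM). The median log2 fold change of the 41 genes was -0.03, beside 0.01 for all genes tested. The groups did not overlap in 1 of the 41 genes, *Tap1*, beside 9.96% of all genes.

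In the input fraction, 15 of the 41 genes changed, 8 higher and 7 lower, which is 36.6% of them beside 15% of all genes tested and 29.5% of genes at or above the lowest level of the 41. Of these 15, only *H2-K1*, *Tap1* and *Ifi27* kept the call when the spread was estimated over all 18 libraries. The calls of *Isg15*, *Usp18*, *Mx1*, *B2m* and *H2-D1* were among those lost. The median log2 fold change was -0.02 for the 41 and -0.00 for all genes. The groups were separate in 11 of the 41 genes, beside 27.1% of all genes with 3 libraries a group. The changes were small in both fractions, with a median size of 0.18 on the log2 scale in IP and 0.11 in input among the genes called. None of the 41 passed a test against a fold change of 1.2. Few genes of any kind did, 95 of all 24495 in IP and 55 in input, so this does not set the 41 apart. Input and IP of replicates 4 to 6 share dishes, so the 9 genes called in both fractions, all in the same direction, are not 2 independent findings. A further 2 genes were called in IP and not in input, 6 in input and not in IP, and 24 in neither.

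**Figure D2:**
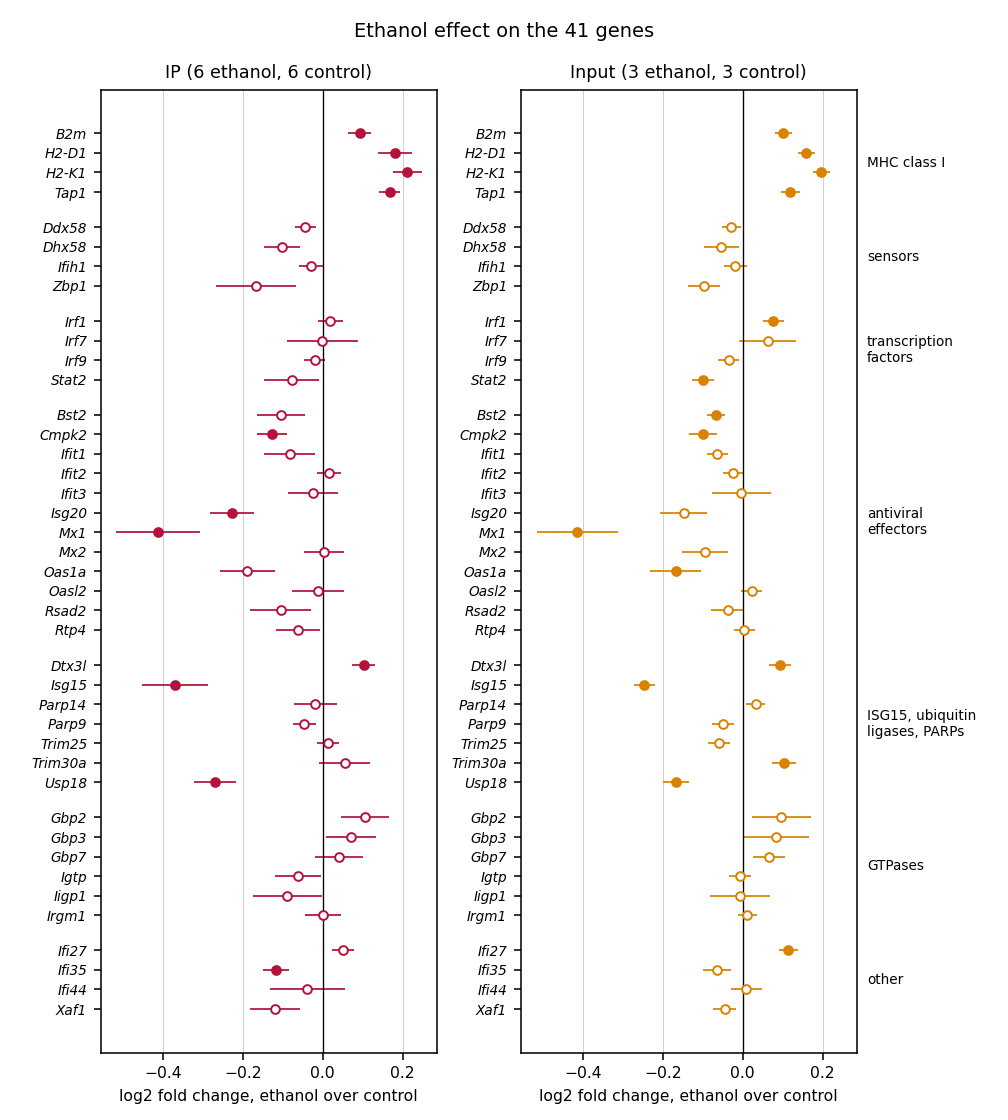
Log2 fold change of ethanol over control with its SE (bars) for the 41 genes by role, in IP (left, 6 against 6 libraries) and input (right, 3 against 3), with filled points for an adjusted p below 0.05. The 4 MHC class I genes are filled and right of 0 in both panels, and *Mx1* and *Isg15* are filled and farthest left in both.

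All 4 genes of MHC class I presentation rose in both fractions. In IP, *H2-K1*, a classical heavy chain, ranged over 1923, 2043 and 2178 CPM (lowest, median, highest) in control and 2102, 2378 and 2467 CPM in ethanol libraries. Only the lowest ethanol library, replicate 5, fell within the control range, and the log2 fold change was 0.21 (SE 0.036, adjusted p = 0.000242), or 15.8%. In input, *H2-K1* stood at 1554, 1599 and 1573 CPM in control replicates 4, 5 and 6 and at 1842, 1693 and 1894 CPM in the ethanol ones. The groups did not overlap, and the log2 fold change was 0.20 (SE 0.021, adjusted p = 3.68e-17). *H2-D1*, the other classical heavy chain measured, ranged over 1806, 1893 and 2046 CPM in IP control and 1879.6, 2186 and 2249 CPM in IP ethanol. Again ethanol replicate 5 alone lay among the controls, and the log2 fold change was 0.18 (SE 0.042, adjusted p = 0.00637). In input the *H2-D1* values were 1482, 1499 and 1493 CPM in control and 1676, 1576 and 1754 CPM in ethanol, with no overlap and a log2 change of 0.16 (SE 0.021, adjusted p = 1.52e-11). The heavy chains resemble each other and further class I genes in sequence, and read pairs that mapped to several places were left out. Their levels may thus be too low, and whether pairs of other class I genes were counted for them was not tested.

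*Tap1*, which encodes a subunit of the transporter that carries peptides into the endoplasmic reticulum, ranged over 141, 152.4 and 159.8 CPM in IP control and 164.7, 169.8 and 179 CPM in IP ethanol libraries. No control library reached the lowest ethanol library, and the log2 change of 0.17 (SE 0.026) had an adjusted p of 1.31e-06. In input it stood at 130.0, 127 and 128 CPM in control and 139.8, 137 and 143 CPM in ethanol. The groups were again separate, with a log2 change of 0.12 (SE 0.024, adjusted p = 2.97e-05). Pairs shared with the overlapping exons of *Psmb9* on the opposite strand were not counted for either gene. *B2m* ranged over 1931, 1982 and 2057 CPM in IP control and 1886, 2141 and 2205 CPM in IP ethanol libraries. Its lowest ethanol library, replicate 5, was below every control, and the log2 fold change was 0.09 (SE 0.029, adjusted p = 0.0184), a call that was lost in 6 of the 12 fits that left out a library. In input, where *B2m* was at 2058, 1963 and 1971 CPM in control and 2204, 2039 and 2203 CPM in ethanol, the groups overlapped through ethanol replicate 5 and the log2 fold change was 0.10 (SE 0.021, adjusted p = 3.93e-05).

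Microglia carry MHC class I genes as well, so the values of their markers are given here. Of 18 markers, 5 were higher in ethanol in IP (27.8%) and 4 in input (22.2%), with none lower. These shares lie beside 21.4% and 15% of all genes, so the counts do not set the markers apart. Among genes at or above 4.54 CPM, a level that not all markers reached, the shares were 39.9% and 29.5%. The median log2 fold change of the markers was 0.17 in IP and 0.08 in input. Their summed level was 105 to 112 CPM in IP control and 118 to 125 CPM in IP ethanol libraries. In input it was 308 to 319 CPM in control and 323 to 355 CPM in ethanol libraries. The defining marker *P2ry12* had a mean of 0.0704 CPM in IP control and 0.0888 CPM in input control, while *Csf1r* had 3.76 and 23.1 CPM. The part of microglial RNA in the rise of the class I genes was not tested. Of 12 astrocyte markers, 4 were higher and 1 lower in IP (41.7% called), and 4 were higher and 4 lower in input (66.7%).

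Antiviral effectors were lower in ethanol where they changed. Of the 12 measured, none rose in either fraction, 3 fell in IP (*Mx1*, *Isg20* and *Cmpk2*) and 4 fell in input (*Mx1*, *Cmpk2*, *Oas1a* and *Bst2*), and their median log2 fold change was -0.09 in IP and -0.07 in input. The share called in IP was 25.0%, beside 21.4% of all genes and 39.9% of genes at or above 4.54 CPM. In input it was 33.3%, beside 15% and 29.5%, so these counts do not set the effectors apart. *Mx1* ranged over 4.54, 5.44 and 6.03 CPM in IP control and 3.09, 3.82 and 5.30 CPM in IP ethanol. The ethanol libraries were mostly below the controls, with replicate 1 among them, and the log2 fold change was -0.41 (SE 0.105, adjusted p = 0.00813). In input *Mx1* was at 4.52, 4.61 and 5.30 CPM in control and 3.29, 3.26 and 4.34 CPM in ethanol. The groups did not overlap and the log2 fold change was again -0.41 (SE 0.101, adjusted p = 0.00065). *Mx2*, its neighbour on chromosome 16, had values of 0.00 in IP and -0.09 in input with adjusted p of 0.981 and 0.328.

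*Isg20*, an exonuclease that degrades viral RNA, ranged over 9.26, 9.86 and 11.0 CPM in IP control and 7.21, 8.48 and 9.58 CPM in IP ethanol. The ranges overlapped at their ends, and the log2 fold change was -0.23 (SE 0.055, adjusted p = 0.00143). Its input values of 14.2, 14.6 and 14.5 CPM in control and 13.7, 12.04 and 13.4 CPM in ethanol did not overlap, but the log2 change of -0.15 (SE 0.058) did not pass the test (adjusted p = 0.0668). *Cmpk2*, a mitochondrial nucleotide kinase that lies beside *Rsad2* on chromosome 12, ranged over 51.8, 53.6 and 55.7 CPM in IP control and 44.3, 48.5 and 54.8 CPM in IP ethanol. Ethanol replicate 1 lay among the controls, and the log2 fold change was -0.13 (SE 0.038, adjusted p = 0.0134). In input *Cmpk2* was at 45.9, 45.0 and 48.7 CPM in control and 43.7, 43.1 and 43.8 CPM in ethanol, without overlap and with a log2 change of -0.10 (SE 0.035, adjusted p = 0.0294). For *Rsad2*, the antiviral enzyme viperin, the log2 fold changes were -0.11 in IP and -0.04 in input, with adjusted p of 0.412 and 0.657.

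*Oas1a*, which makes the second messenger that activates RNase L, was at 13.2, 10.9 and 12.7 CPM in input control and 10.7, 10.7 and 11.5 CPM in input ethanol. Control replicate 5 lay within the ethanol range, and the log2 change of -0.17 (SE 0.063) passed with an adjusted p of 0.0489. In IP it ranged over 8.73, 10.9 and 11.3 CPM in control and 7.79, 9.25 and 10.7 CPM in ethanol, a log2 change of -0.19 (SE 0.070) that did not pass (adjusted p = 0.0577). *Bst2* was at 397, 364 and 395 CPM in input control and 372, 361 and 374 CPM in input ethanol, which overlapped through control replicate 5, with a log2 change of -0.07 (SE 0.023, adjusted p = 0.0257). In IP its log2 fold change was -0.11 (SE 0.061, adjusted p = 0.288). The input calls of *Oas1a*, *Bst2* and *Cmpk2* were lost in 4, 3 and 3 of the 6 fits that left out a library. *Ifit1*, *Ifit2*, *Ifit3*, *Oasl2* and *Rtp4* passed in neither fraction, with log2 fold changes between -0.08 and 0.02.

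In the group of ISG15, its regulators and other ubiquitin and ADP-ribosylation enzymes, *Isg15* and *Usp18* fell. *Isg15* ranged over 94.0, 122 and 127 CPM in IP control and 83.3, 86.7 and 102 CPM in IP ethanol. The control libraries were all above 110 CPM apart from replicate 5, which lay among the ethanol libraries, and the log2 fold change was -0.37 (SE 0.083, adjusted p = 0.00778), or -22.7%. In input *Isg15* was at 108, 95.0 and 105 CPM in control and 83.8, 87.2 and 89.1 CPM in ethanol. The groups did not overlap, and the log2 fold change was -0.25 (SE 0.027, adjusted p = 8.83e-18). This input call was lost when the spread was estimated over all 18 libraries, and the IP call of *Isg15* was lost in replicates 4 to 6 alone. *Usp18* ranged over 54.7, 63.4 and 66.3 CPM in IP control and 48.6, 49.9 and 57.1 CPM in IP ethanol. It too overlapped through control replicate 5, with a log2 change of -0.27 (SE 0.053, adjusted p = 0.00216). In input *Usp18* was at 56.5, 50.0 and 57.7 CPM in control and 47.2, 49.4 and 50.1 CPM in ethanol, a log2 change of -0.17 (SE 0.033, adjusted p = 1.02e-05). *Trim25*, a ligase that ubiquitinates RIG-I and attaches ISG15, had log2 fold changes of 0.01 in IP and -0.06 in input, with adjusted p of 0.821 and 0.158. The further ISG15 conjugation genes *Uba7*, *Ube2l6* and *Herc6*, named after their values were seen, had log2 fold changes of 0.02, -0.07 and -0.01 in IP and 0.12, -0.07 and 0.08 in input and passed in neither.

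*Dtx3l*, a ubiquitin ligase that works as a pair with PARP9, rose. It ranged over 97.8, 103 and 108 CPM in IP control and 101, 109 and 119.7 CPM in IP ethanol, with overlapping groups and a log2 change of 0.10 (SE 0.030, adjusted p = 0.00875). In input it was at 92.4, 82.8 and 87.9 CPM in control and 94.8, 90.4 and 96.2 CPM in ethanol, a log2 change of 0.09 (SE 0.027, adjusted p = 0.00582). The input call was lost without control replicate 5 or without ethanol replicate 6 (adjusted p up to 0.332) and with DESeq2, and the IP call was lost in replicates 1 to 3 alone and with GC and length trends removed. *Parp9*, which shares its start region and some exon bases with *Dtx3l* on the opposite strand, had log2 fold changes of -0.05 in both fractions and passed in neither (adjusted p = 0.297 in IP and 0.274 in input). *Trim30a*, a ligase that limits inflammatory signalling, was at 84.9, 72.4 and 81.7 CPM in input control and 86.1, 82.1 and 88.9 CPM in input ethanol, with a log2 change of 0.10 (SE 0.031, adjusted p = 0.0113). The groups overlapped, 3 of 6 fits without a library lost the call, and in IP the log2 fold change was 0.05 (SE 0.064, adjusted p = 0.651). *Parp14* passed in neither fraction.

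**Figure D3:**
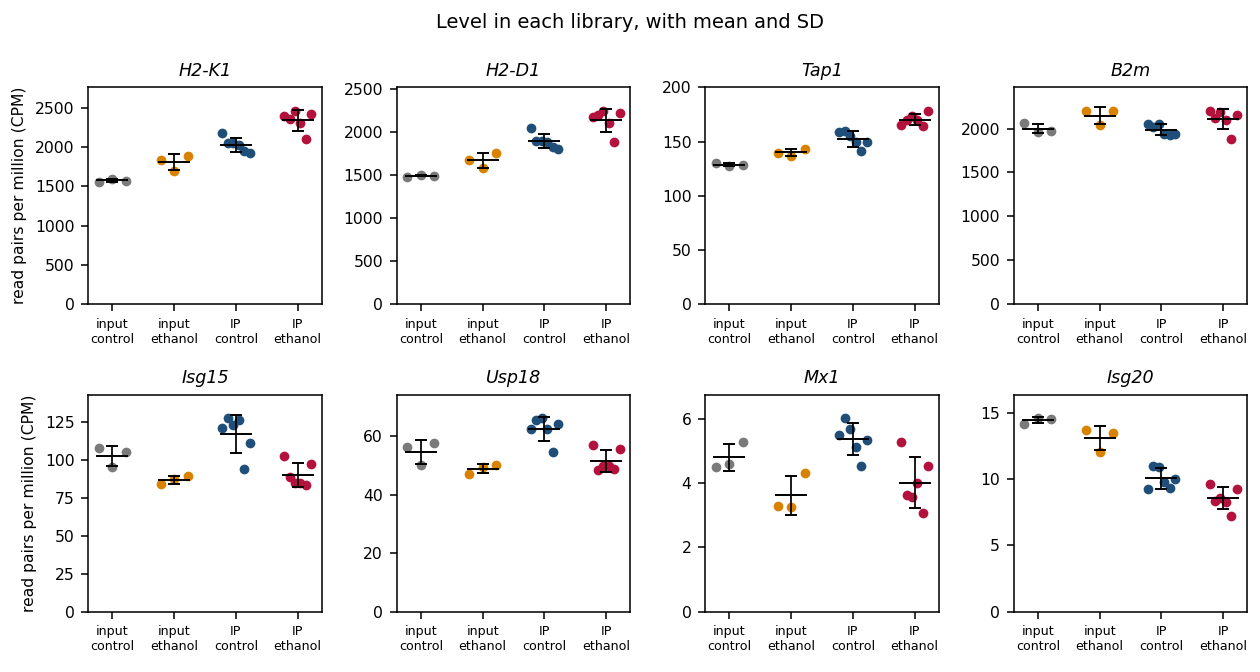
CPM of 8 genes in each library (points, in order of replicate number) with the group mean and SD, for input and IP under control and ethanol. The MHC class I genes of the upper row are higher in ethanol within each fraction, and *Isg15*, *Usp18*, *Mx1* and *Isg20* in the lower row are lower.

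Among the transcription factors *Irf1* rose and *Stat2* fell, both in input, and no sensor was called. The sensors (*Ddx58*, *Ifih1*, *Dhx58*, *Zbp1*) had log2 fold changes from -0.17 to -0.03 in IP and from -0.10 to -0.02 in input. *Irf1*, a factor that binds the promoters of MHC class I genes, was at 96.0, 91.9 and 95.6 CPM in input control and 98.0, 99.3 and 102 CPM in input ethanol. These did not overlap, with a log2 change of 0.08 (SE 0.026, adjusted p = 0.0287), while in IP it was 0.02 (SE 0.032, adjusted p = 0.77). *Stat2* was at 80.4, 72.1 and 82.1 CPM in input control and 71.9, 71.2 and 76.3 CPM in input ethanol, overlapping through control replicate 5, with a log2 change of -0.10 (SE 0.028, adjusted p = 0.00476). Its IP value was -0.08 (SE 0.068, adjusted p = 0.519). The input calls of *Irf1* and *Stat2* were each lost in 3 of 6 fits that left out a library. *Irf7*, which drives later interferon production, and *Irf9* passed in neither fraction.

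None of the 6 interferon-induced GTPases passed in either fraction. These are the guanylate-binding proteins *Gbp2*, *Gbp3* and *Gbp7* and the immunity-related GTPases *Iigp1*, *Igtp* and *Irgm1*, which act on the vacuoles of intracellular microbes, and their log2 fold changes lay between -0.09 and 0.11 in IP and between -0.01 and 0.10 in input. Of the other interferon-induced genes, *Ifi35*, whose product dampens or boosts innate signalling depending on its partners, fell in IP. It ranged over 49.0, 52.4 and 55.3 CPM in IP control and 44.6, 48.5 and 51.2 CPM in IP ethanol, with a log2 change of -0.12 (SE 0.032, adjusted p = 0.00464). Its input values of 42.8, 43.4 and 42.8 CPM in control and 41.4, 40.4 and 41.9 CPM in ethanol did not overlap but did not pass the test (log2 fold change -0.06, SE 0.036, adjusted p = 0.254). *Ifi27*, a mitochondrial protein linked to apoptosis, was at 119, 122 and 127 CPM in input control and 133, 135 and 132 CPM in input ethanol. The ethanol libraries were all above the controls, with a log2 change of 0.11 (SE 0.025, adjusted p = 8.36e-05), while the IP value of 0.05 (SE 0.027) did not pass (adjusted p = 0.215). *Ifi44* and *Xaf1* passed in neither fraction.

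Whether ethanol acted differently in the IP and input fractions was asked with an interaction term in all 18 libraries. With edgeR no gene of the 41 and 0% of all 24495 genes were called, and 0 of the 41 had an unadjusted p below 0.05, against 1459 of all genes. The log2 difference between the fold changes in IP and input ran from -0.13 for *Isg15* (adjusted p = 0.922) to 0.09 for *Mx2* (adjusted p = 0.926). When the 6 dishes that gave both fractions were fitted with dish blocks (12 libraries), edgeR called 102 genes, none of them among the 41, of which 3 had an unadjusted p below 0.05. DESeq2 called 2 genes, again none of the 41. The calls of *Ifi35* and *Isg20* in IP and of the 6 genes in input were thus not shown to be particular to a fraction.

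The 41 genes varied together from dish to dish. Within groups their SD of log2 CPM had a median of 0.0949, beside 0.0546 for the 11221 genes at or above their lowest level. In control replicate 5, 34 of the 41 genes were lowest of the 3 input control libraries and 35 were lowest of the 6 IP control libraries, where 36.9% and 21.7% of the 11221 genes had their lowest value. This dish gave both libraries, and its median deviation from the group means was -0.08 in input and -0.11 in IP on the log2 scale. In ethanol replicate 6, 32 of the 41 genes were highest in input (27.4% of the 11221 genes), and its median deviation in IP was 0.06. Ethanol replicate 5 was lowest for 30 genes in input and for 18 in IP, where ethanol replicate 2, which has no input library, was lowest for 19. Ethanol replicate 1, also without an input library, was highest in IP for 35 genes (19.3% of the 11221 genes) with a median deviation of 0.18. Control replicate 5 and ethanol replicate 5 were thus low, and ethanol replicate 6 high, in both fractions, while control replicates 4 and 6 were above the group mean in input (0.04 each) and close to it in IP (-0.01 and -0.00). Across the 41 genes, deviations in the input and the IP library of a dish correlated with r between 0.19 and 0.68 in the 6 dishes, beside 0.02 to 0.15 over the 13420 genes with a mean log2 CPM above 0. These genes are not independent, and the libraries of a group share their mean.

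**Figure D4:**
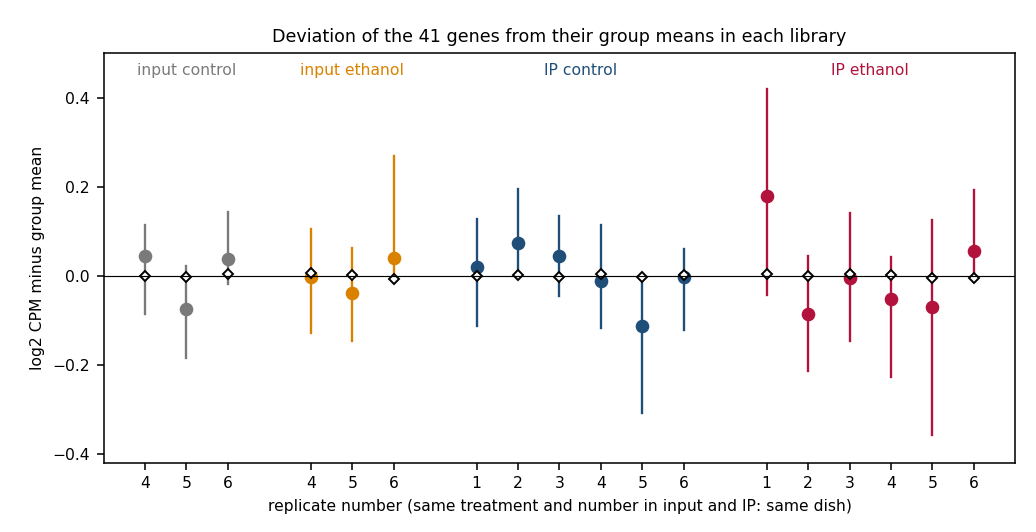
Deviation of log2 CPM from the group mean in each of the 18 libraries: median of the 41 genes (filled circles), their lowest to highest value (lines) and the median of all 11221 genes at or above the lowest mean of the 41 (open diamonds, near 0 throughout). Control replicate 5 is low in input (-0.08) and in IP (-0.11), and IP ethanol replicate 1 is high (0.18).

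These dishes bear on the counts given for ethanol. Without IP ethanol replicate 1, edgeR called 18 of the 41 genes in IP, 4 higher and 14 lower, in place of 11. Without that library and IP control replicate 5 it called 26, of which 2 were higher and 24 lower. Over all 24495 genes these fits called 5091 and 4934, beside 5233 with no library left out. The libraries left out were picked for the levels of these same 41 genes, the highest of the ethanol and the lowest of the control group. Leaving them out thus moves the fold changes downward by construction. Of the 11 genes called in IP, all but *B2m* kept the call in each of the 12 fits that left out 1 library. Leaving out a library of the input comparison gave between 10 and 16 calls.

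The fractions themselves were compared in all 18 libraries, with treatment as a covariate. Of the 41 genes, 26 (63.4%) differed between IP and input, 19 higher and 7 lower in IP, beside 51% of all genes tested and 78.5% of genes at or above the lowest level of the 41. The median log2 difference was 0.12, beside -0.03 for all genes. The libraries did not overlap in 15 of the 41 genes, beside 25% of all genes. Dish blocks (6 dishes, 12 libraries) gave 32 calls among the 41.

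The largest difference of the 41 was that of *Zbp1*, a sensor that triggers necroptosis. It stood at 28.2, 32.8 and 34.8 CPM (lowest, median, highest) in input and at 11.6, 15.4 and 18.5 CPM in IP libraries. Every IP library was below every input library, with a log2 difference of -1.04 (SE 0.074, adjusted p = 1.81e-09). *Xaf1*, an antagonist of apoptosis inhibitors, ranged over 70.8, 76.3 and 82.2 CPM in input and 48.6, 55.8 and 62.4 CPM in IP, a log2 difference of -0.45 (SE 0.051, adjusted p = 7.94e-07). *Irgm1*, which regulates other immunity-related GTPases and autophagy, ranged over 223, 238 and 252 CPM in input and 179, 198 and 221 CPM in IP, a log2 difference of -0.28 (SE 0.039, adjusted p = 7.19e-06). All 3 were separate between fractions. The other genes lower in IP were *Isg20* (log2 difference -0.57), *Oas1a* (-0.24), *Mx2* (-0.16) and *Bst2* (-0.12). Of the 12 antiviral effectors 4 were thus lower and 3 (*Ifit2*, *Oasl2* and *Cmpk2*) higher in IP. The share called was 58.3%, beside 51% of all genes and 78.5% of genes at or above the lowest level of the 41. Microglia markers were also lower in IP (median log2 difference -2.46, 17 of 18), and their part in these values was not tested.

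*Gbp2* had the largest IP over input difference among the genes called in no ethanol comparison. It ranged over 251, 264 and 296 CPM in input and 332, 373 and 439 CPM in IP, a log2 difference of 0.48 (SE 0.050, adjusted p = 3.27e-07). *Parp14*, an ADP-ribosyl transferase, ranged over 121, 127 and 131 CPM in input and 155.5, 169 and 194 CPM in IP, with a log2 difference of 0.42 (SE 0.042, adjusted p = 1.35e-07). *Gbp3* ranged over 116, 133 and 144 CPM in input and 151.1, 169.7 and 203 CPM in IP, with a log2 difference of 0.41 (SE 0.053, adjusted p = 4.86e-06). None of the 3 overlapped between fractions. Among genes also called for ethanol, *Irf1* was higher in IP by 0.59 (SE 0.027) and *Ifi27* by 0.52 (SE 0.023) on the log2 scale. *H2-K1*, *H2-D1* and *Tap1* were higher in IP by 0.37, 0.35 and 0.26, while *B2m* had a log2 difference of -0.02 (SE 0.026, adjusted p = 0.667). Of the ISG15 group, 5 of 7 were higher in IP and none lower. That is 71.4% called, beside 51% of all genes and 78.5% of genes at or above the lowest level of the set. The share called thus does not set this group apart. *Isg15* itself had a log2 difference of 0.12 (SE 0.064, adjusted p = 0.128). A test against a fold change of 1.2 left 10 of the 26 calls, 7 higher and 3 lower, beside 4936 calls among all 24495 genes.

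**Figure D5:**
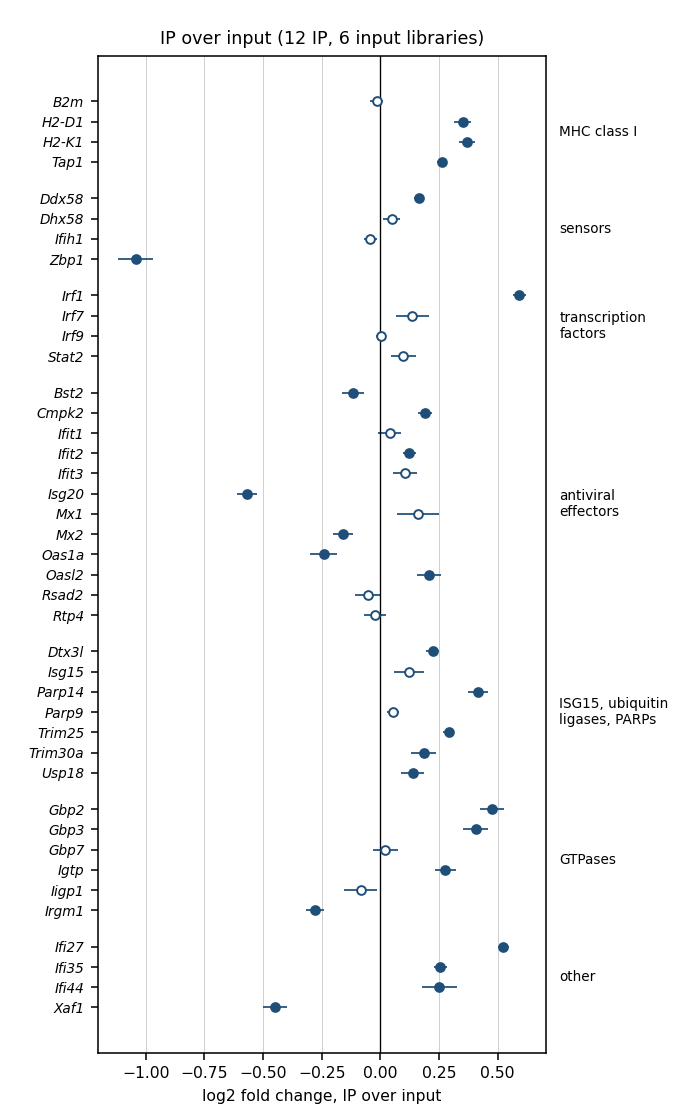
Log2 difference of IP over input with its SE (bars) for the 41 genes by role, over 12 IP and 6 input libraries, with filled points for an adjusted p below 0.05. *Zbp1* lies far left at -1.04, and *Irf1* (0.59), *Ifi27* (0.52) and *Gbp2* (0.48) lie farthest right.

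Other genes of the pathway, listed by role from general knowledge, are given by counts and by the called genes with the lowest p-values. Of 25 further MHC class I presentation genes tested, 12 rose and 3 fell in IP and 8 rose and 3 fell in input, with median log2 fold changes of 0.12 and 0.05. The shares called were 60.0% in IP and 44.0% in input, beside 39.9% and 29.5% of genes at or above 4.54 CPM. *H2-Q7*, a non-classical heavy chain, rose by 0.34 (SE 0.048) in IP, *H2-M3* by 0.28 (SE 0.045) and the chaperone gene *Canx* by 0.13 (SE 0.022). In input the lowest p-values were those of *H2-Q6*, which rose by 0.44 (SE 0.030), *H2-T23* (0.23, SE 0.023) and *H2-T22* (0.22, SE 0.023). The 3 that fell in both fractions, named after their values were seen, were *Psmb10*, *Psme1* and *Psme2*, at -0.20, -0.16 and -0.15 in IP. *Psmb10* encodes an immunoproteasome subunit and the others proteasome activator subunits, while the immunoproteasome subunit genes *Psmb8* (-0.05) and *Psmb9* (0.02) did not pass in IP, nor did they in input (-0.03 and 0.05). Of 20 interferon receptor and JAK-STAT genes, 7 rose in IP (35.0%) and 6 in input (30.0%) and none fell. These shares were close to the 39.9% and 29.5% of genes at or above 4.54 CPM, a level that not all listed genes reached. In IP *Stat3* rose by 0.15 (SE 0.023), the kinase gene *Tyk2* by 0.18 (SE 0.028) and the receptor gene *Ifnar1* by 0.13 (SE 0.025). In input *Ifngr1* rose by 0.16 (SE 0.023), *Jak2* by 0.17 (SE 0.025) and *Ifnar1* by 0.12 (SE 0.025).

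Of 70 other interferon-stimulated genes tested, 4 rose and 14 fell in IP and 3 rose and 10 fell in input, with median log2 fold changes of -0.07 and -0.03. These are 25.7% and 18.6% of the list, beside 21.4% and 15% of all genes. Among genes at or above 4.54 CPM the shares were 39.9% and 29.5%, but some of the listed genes, such as *Ifi205*, lie below that level. The chemokine gene *Cxcl10* fell by 0.31 on the log2 scale in input (SE 0.024), and *Ifi205*, a member of the family of DNA-binding IFI200 proteins, fell by 0.45 (SE 0.082) in IP. *Lgals3bp* rose by 0.21 (SE 0.029) in IP and 0.16 (SE 0.022) in input, and *Gbp9* by 0.23 (SE 0.037) and 0.19 (SE 0.028). Of 23 genes of nucleic acid sensing, 3 rose and 3 fell in IP (26.1%) and 1 rose and 1 fell in input (8.70%). *Samhd1*, which limits the nucleotide supply of viruses, fell by 0.29 (SE 0.024) in IP and by 0.27 (SE 0.025) in input. The adaptor genes *Ticam1* and *Traf3* rose in IP by 0.14 (SE 0.035) and 0.09 (SE 0.024), and the kinase gene *Ikbke* rose in input by 0.11 (SE 0.035). Of 11 MHC class II presentation genes, *H2-DMa* rose in both fractions, by 0.13 (SE 0.047) in IP and 0.34 (SE 0.067) in input, and *H2-DMb1* rose in IP by 0.19 (SE 0.062).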

How the data were processed

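RNA was sequenced from input and IP of Aldh1l1-EGFP/Rpl10a astrocyte cultures in 18 libraries. The authors used Trimmomatic for trimming and STAR for alignment to GRCm38 and for counting, and deposited raw read counts per gene, unstranded and for each strand, with no normalization or pooling. The table of unstranded counts was used. STAR left out pairs mapping to several places (mean 3.60%), and pairs on exons of more than 1 gene (mean 5.50%) were counted for none. Gene positions and exon lengths came from GENCODE M21 (GRCm38), which held 51719 of the 51912 genes.

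CPM and fold changes were computed here from the counts of 24495 genes, those with 10 or more read pairs in total. Each comparison was fitted over all of them with edgeR 4.0.16 in R 4.3.3 (TMM, glmQLFit with robust estimation, glmQLFTest) and Benjamini-Hochberg adjustment, with a threshold of 0.05. The SE is the log2 fold change divided by the square root of F. Ethanol was tested in 12 IP and in 6 input libraries, IP against input in all 18 with treatment as a covariate, and the interaction in all 18. Alternatives were DESeq2 1.42.0, other normalizations and filters, counts of the annotated strand, a test against a fold change of 1.2, blocks, subsets of libraries, GC and length offsets and leaving out each library. The procedure was tested on simulated counts.

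The libraries closest to each other still differed beyond sampling noise, so none was counted as a copy. Input and IP libraries of a treatment and number share a dish per the labels, which pairs them, and deviations of the 41 genes within these dishes correlated between 0.19 and 0.68.

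The genes, lists and roles were chosen with earlier results of these data known. Genes called for ethanol or the interaction are given with their libraries, as are the 3 largest increases and 3 largest decreases among those called for IP against input alone with a mean of at least 1 CPM. From each other list at most 3 genes per ethanol comparison, those with the lowest p-values, are named. Genes of cell type lists were named only where they bear on these genes. For 10 genes no promoter window was matched (*Ifi27*, *Dhx58*, *Mx1*, *Mx2*, *Usp18*, *Rtp4*, *Iigp1*, *Parp9*, *Parp14* and *Zbp1*).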

Additional observations from a re-analysis of the deposited data

Results flagged for a closer look

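In the 6 libraries of each IP group, 8 values among the 82 pairs of a gene and a group stood apart from the other 5 by Dixon's test at its 95% critical value, where chance flags about 1 in 20 groups. Of these, 6 were the lowest IP control value in replicate 5. They were *Ifit1* at 215 CPM, *Ifit3* at 639 CPM, *Dhx58* at 23.0 CPM, *Oasl2* at 294 CPM, *Usp18* at 54.7 CPM and *Irgm1* at 182 CPM. The gap to the next library as a share of the group's range was widest for *Dhx58* (0.851) and narrowest for *Oasl2* (0.626). The genes are not independent, and this is the dish whose input library was also lowest for 34 of the 41 genes. *Ifit3* was highest in IP ethanol replicate 1 at 836 CPM, with a gap of 0.696 of the range. *B2m* was lowest in IP ethanol replicate 5 at 1886 CPM, with a gap of 0.673. Why these dishes stood apart was not tested.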

How the results depend on the processing

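Genes called for ethanol were followed through the alternatives. So were the 3 largest increases and 3 largest decreases among those called for IP against input alone. None of their fold changes reversed. Of the values recomputed for these genes, 613 kept their side of the threshold and 97 did not. Other genes called for IP against input were not followed in this way. For ethanol in IP the 11 calls became 12 with DESeq2, 0 against a fold change of 1.2, 12 in replicates 1 to 3 and 14 in replicates 4 to 6, 10 to 18 when each library was left out, and 26 without IP control replicate 5 and IP ethanol replicate 1, an alternative chosen after the values were seen. With the replicate number as a block it was 22 in IP (7 higher, 15 lower) and 18 in input. The labels do not say whether the number pairs a control with an ethanol dish. The correlations of their deviations in IP ran from -0.10 to 0.22 over all genes. Input and IP libraries of the same dish reached only 0.02 to 0.15, so these correlations cannot decide whether the number pairs dishes. For ethanol in input the 15 calls became 8 with DESeq2, 3 when the spread was estimated over all 18 libraries (all 3 higher), 0 against a fold change of 1.2, 10 to 16 when each library was left out, and 14 without replicate 5 of both groups, also chosen afterwards. For IP against input the 26 calls became 10 against a fold change of 1.2, 34 without a count filter, 32 with the dish as a replicate block and 24 to 28 when each library was left out. The interaction gave 0 calls among the 41 genes under every alternative. The cause of these shifts was not tested. The lowest count of any of the 41 genes in a library was 258, so counting error was small.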
